A study of Mus musculus with 23 samples.

Results

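The mitosis genes are 50 named genes that drive a cell through division: the cyclin-dependent kinase Cdk1 and its partners, the mitotic kinases, the kinetochore and the spindle checkpoint, the kinesins, the cytokinesis factors and the condensins. They were found by their gene symbols among the probe sets of a mouse Affymetrix array. Of the 50 symbols, 48 had a probe set of that symbol alone. Ccnb1 and Cdca8 had none in the annotation used here. The 48 genes were read by 87 of the 22690 probe sets, and all 48 were bright enough to be tested, among 11158 genes tested in all.

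RNA of gastrocnemius muscle was measured on 23 arrays, in 9 groups of genotype and day, in a study of muscle degeneration and regeneration in mice that lack emerin or lamin A/C, proteins of the nuclear envelope. Emerin KO (knockout) muscle gave 2 arrays on day 0, 3 on day 3 and 3 on day 4 after injection. Lamin A/C KO muscle gave 3 arrays on each of those days. Control muscle gave 2 arrays on each day. The day 0 emerin KO and control muscles were described as not injected, and the day 0 lamin A/C KO muscles as taken 0 days after injection. The titles tie all 6 control arrays to the lamin A line, and emerin KO and a difference in background between the lines cannot be told apart. The injected agent, the age, sex and strain of the mice and whether each array came from its own animal are not given in the sources used here. The p-values therefore speak of the spread among the arrays at hand, which may be technical.

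In a cell that enters mitosis, Cdk1 bound to a B-type cyclin phosphorylates the proteins that condense the chromosomes and build the spindle. The spindle checkpoint holds the cell until every kinetochore is attached, after which the anaphase-promoting complex marks securin and cyclin B for degradation. Mature muscle fibres no longer divide; in injured muscle the dividing cells are mostly myoblasts derived from satellite cells, together with immune and connective tissue cells. In whole muscle RNA, fewer cells of a type and less RNA per cell cannot be told apart.

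The targeted genes were lowest on the arrays of their own knockout. The Lmna signal lay between 53 and 109 on the 9 lamin A/C KO arrays and was at least 650 on every other array, and the Emd signal lay between 153 and 465 on the 8 emerin KO arrays and was at least 587 on every other array. Emd in emerin KO against control differed by -1.57 on day 3 (limma, adjusted p = 4.7e-04) and -1.61 on day 4 (adjusted p = 0.0017), and by -0.65 on day 0, which did not pass (adjusted p = 0.27; 0.067 against lamin A/C KO). RNA quality was uneven over the groups. The Gapdh control probe sets gave a 3' to 5' signal ratio of 4.79, 6.09 and 3.62 in emerin KO on day 3 and of 2.89, 1.40 and 5.30 in emerin KO on day 4, against 0.822 to 1.64 on the 15 lamin A/C KO and control arrays. The emerin KO day 0 arrays read 0.914 and 1.34. Its part in the emerin KO results was not tested. The counts against emerin KO on the injured days are also given from a fit that holds the ratio as a covariate. The ratio was high on most injured emerin KO arrays and on no lamin A/C KO or control array. This fit therefore separates it poorly from genotype.

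Many mitosis genes are known to share 2 short promoter elements, the CCAAT box, bound by NF-Y, and the cell cycle homology region (CHR, TTTGAA), bound by the MuvB complexes that repress these genes in resting cells and activate them in dividing cells. RefSeq promoter windows (GRCm38.p6, 250 bases before to 50 after each annotated start) were at hand for 43 of the 50 symbols, and were searched on both strands for CCAAT, which reads ATTGG on the other strand, and for TTTGAA, which reads TTCAAA there; each motif was counted on its own, whether or not its match overlapped another. CCAAT was in a window of 30 of the 43 genes (69.8%), against 41.1% of the 27025 genes with a window. TTTGAA was in a window of 29 (67.4%), against 20.2% of all. The windows of 25 genes (58.1%) held both, against 7.97% of all. Among 60 other mitosis genes with a window, 66.7% held CCAAT, 51.7% TTTGAA and 36.7% both. Aurkb, Ccna2, Ercc6l, Incenp, Kif20a, Smc4 and Tpx2 were not among the windows used.

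The bases from 170 before to 30 after the start are shown for 6 genes, with both motifs in capitals on either strand. The first 5 rose after injury in every genotype and hold both motifs here, and the last, Pttg1, fell after injury and holds neither in its whole window.
Ccnb2: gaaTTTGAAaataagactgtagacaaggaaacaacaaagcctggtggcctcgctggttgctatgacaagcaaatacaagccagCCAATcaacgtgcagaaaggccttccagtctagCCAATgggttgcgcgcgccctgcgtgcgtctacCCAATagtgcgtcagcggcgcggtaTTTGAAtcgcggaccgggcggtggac
Cdk1: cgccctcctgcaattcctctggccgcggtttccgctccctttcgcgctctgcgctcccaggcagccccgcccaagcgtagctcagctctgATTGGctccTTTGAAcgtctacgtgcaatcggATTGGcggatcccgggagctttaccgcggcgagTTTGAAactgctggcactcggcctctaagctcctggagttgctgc
Cdc20: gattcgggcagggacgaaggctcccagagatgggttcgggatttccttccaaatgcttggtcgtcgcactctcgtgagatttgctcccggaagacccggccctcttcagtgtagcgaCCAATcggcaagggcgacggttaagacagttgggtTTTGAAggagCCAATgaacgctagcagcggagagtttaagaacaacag
Ube2c: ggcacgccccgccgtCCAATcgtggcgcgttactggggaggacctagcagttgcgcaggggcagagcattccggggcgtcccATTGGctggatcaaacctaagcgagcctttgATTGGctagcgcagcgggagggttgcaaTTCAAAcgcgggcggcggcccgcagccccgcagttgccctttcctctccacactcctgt
Top2a: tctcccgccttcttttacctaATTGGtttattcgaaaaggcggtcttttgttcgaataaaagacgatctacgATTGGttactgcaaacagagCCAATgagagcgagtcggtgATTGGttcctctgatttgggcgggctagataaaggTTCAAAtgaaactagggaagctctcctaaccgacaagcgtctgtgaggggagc
Pttg1: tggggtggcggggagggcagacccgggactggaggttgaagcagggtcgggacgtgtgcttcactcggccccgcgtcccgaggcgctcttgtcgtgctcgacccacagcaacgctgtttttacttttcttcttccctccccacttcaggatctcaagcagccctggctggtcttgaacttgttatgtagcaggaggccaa
These windows lie at chr9:70421525-70421724, minus strand (Ccnb2), at chr10:69352883-69353082, minus strand (Cdk1), at chr4:118437314-118437513, minus strand (Cdc20), at chr2:164769759-164769958, plus strand (Ube2c), at chr11:99024160-99024359, minus strand (Top2a) and at chr11:43425952-43426151, minus strand (Pttg1). Counted from the start, with bases before it negative, the Ccnb2 window holds 3 CCAAT boxes that begin at -87, -54 and -21, and TTTGAA at -167 and 5. The Top2a window holds 4 CCAAT boxes at -149, -98, -78 and -58, and TTCAAA, the same motif on the other strand, at -23. Both motifs were also absent from the windows of Birc5, Mad2l1, Melk, Ncaph, Nuf2, Plk4 and Tacc3, which rose on day 3 in every genotype, and of Nusap1, which rose in lamin A/C KO and control. A match is a run of letters and not a measured binding site.

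Injury raised nearly all the mitosis genes in every genotype. On day 3 against day 0, 40 of the 48 rose and 1 fell in emerin KO, 43 rose and 1 fell in lamin A/C KO, and 46 rose and 1 fell in control muscle (limma, adjusted p under 0.05 over all genes tested). Of all genes tested, 46.1% passed in emerin KO (23.9% higher and 22.2% lower), 43.0% in lamin A/C KO (23.4% and 19.6%) and 34.3% in control (20.1% and 14.2%). The median log2 difference over the 48 genes was 2.36 in emerin KO (5.13-fold), 1.81 in lamin A/C KO (3.52-fold) and 1.87 in control (3.67-fold). A log2 difference of 3 or more was reached by 13 of the genes in emerin KO and by 0 in lamin A/C KO and 0 in control. The same 40 genes rose in all 3 genotypes (83.3% of the 48, against 15.2% of all genes tested). Pttg1 fell in all 3, and Aurka, Aurkb, Nek2, Ercc6l, Kif20a and Nusap1 rose in 1 or 2 of them. Kif11, the kinesin that pushes the spindle poles apart, passed in none by its brightest probe set, though another of its probe sets rose in control. That other probe set also rose in emerin KO on day 4. Each gene is read by its brightest probe set. In 10 genes it is of a kind that can share signal with related transcripts. They are Aurkb, Cdc20, Incenp, Kif22, Kif2c, Ncaph, Plk4, Prc1, Pttg1 and Tacc3. Of the 47 genes that passed in control, 23 have another tested probe set, and in 16 of these another one passed the same way. Bub1, Cdca3, Cenpf, Kif23, Kif2c, Nusap1 and Spc25 had no other probe set that did. In emerin KO those without one were Bub1, Cdca3, Cenpf, Hmmr, Kif23, Plk4 and Spc25. In lamin A/C KO they were Bub1, Cdca3, Cenpf, Hmmr, Kif23, Nusap1, Spc25 and Tpx2. Another Cdca3 probe set passed the other way in both knockouts.

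**Figure D1:**
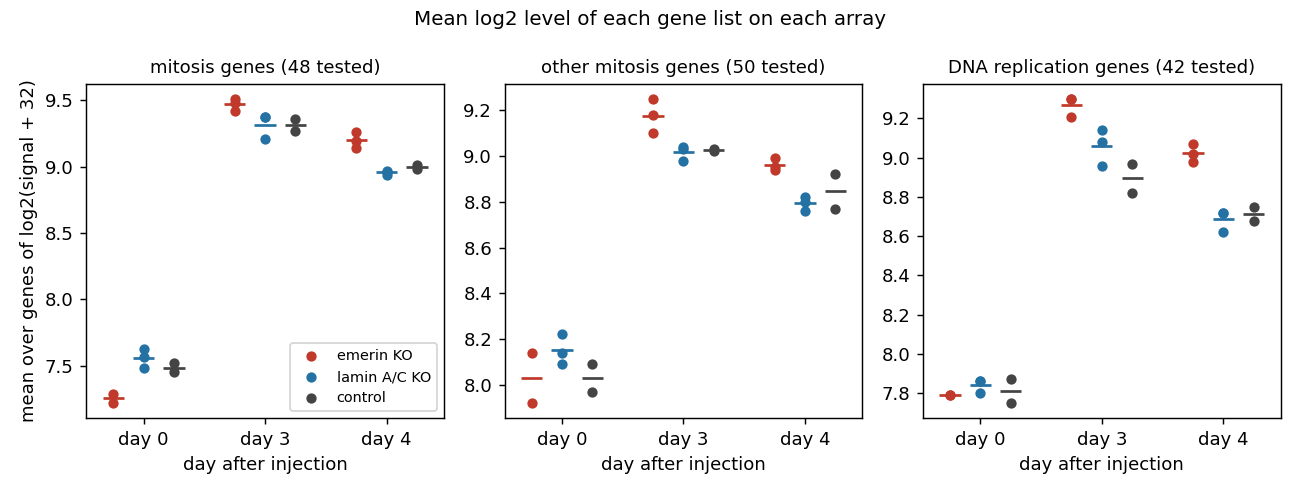
Mean over genes of log2(signal + 32) on each array, for the 48 mitosis genes, 50 other mitosis genes and 42 DNA replication genes that were tested; points are arrays, bars are group means, and days run from left to right. All injured arrays lie above all day 0 arrays in each list, and for the mitosis genes the emerin KO group means are lowest on day 0 (7.25) and highest on days 3 (9.47) and 4 (9.20).

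On day 4 against day 0, 39 genes rose and 1 fell in emerin KO (44.3% of all genes, 23.5% higher and 20.8% lower), 41 rose and 1 fell in lamin A/C KO (39.2% of all genes, 21.0% higher and 18.2% lower), and 42 rose and 1 fell in control (33.8% of all genes, 19.5% higher and 14.3% lower). The medians were 2.11, 1.42 and 1.60 in that order. The differences are on the log2(signal + 32) scale, which understates the change of genes near the bottom of the range. On day 0 the group mean lay under a signal of 100 for 18 of the 48 genes in emerin KO, 13 in lamin A/C KO and 15 in control.

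**Figure D2:**
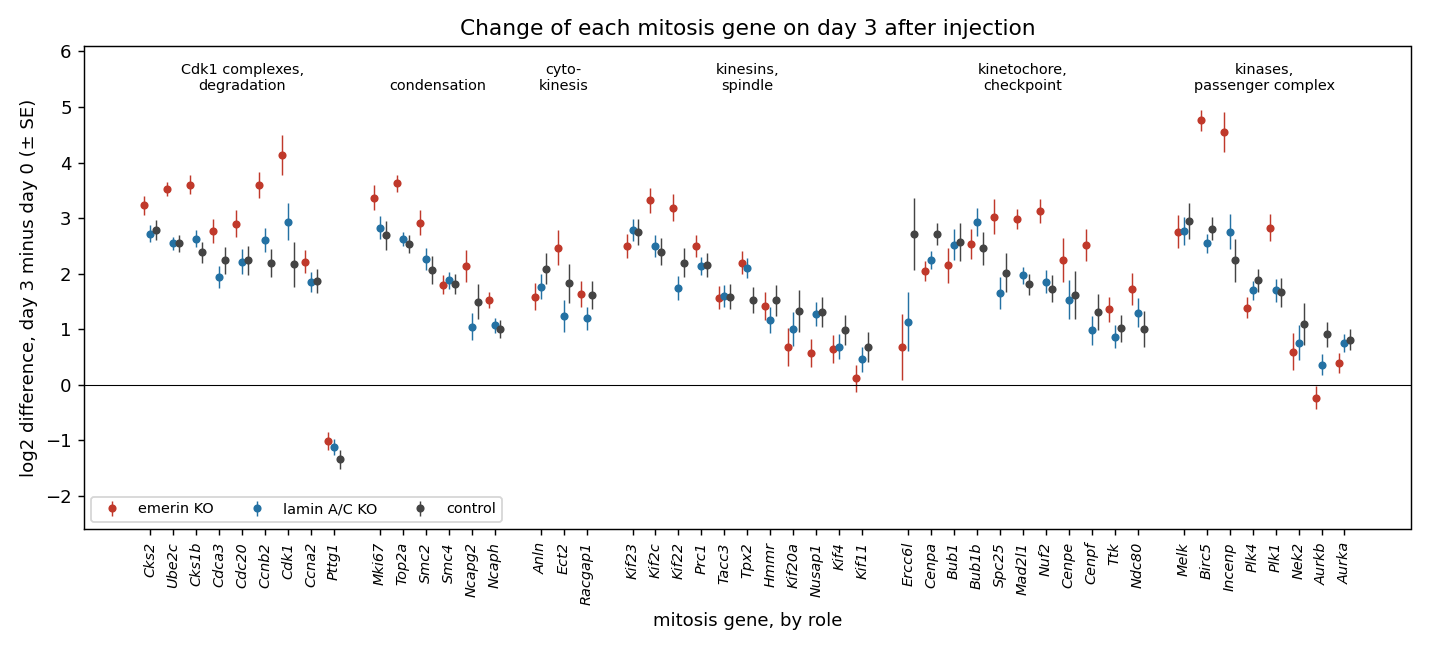
Log2 difference between day 3 and day 0 for each of the 48 mitosis genes, grouped by role, with emerin KO, lamin A/C KO and control side by side from left to right and bars of 1 SE from the limma fit. Pttg1 is below 0 in all 3 genotypes, and the emerin KO points of Birc5 (4.76), Incenp (4.56) and Cdk1 (4.13) stand highest.

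Among the Cdk1 complexes and the proteins that end their activity, 8 of the 9 measured genes rose and Pttg1 fell on day 3 in each genotype. Cks1b is a small subunit that helps Cdk complexes and the SCF ubiquitin ligase find their substrates. Cks1b signals in emerin KO were 259 and 376 on day 0, 4050, 4547 and 3847 on day 3 and 3520, 2885 and 3847 on day 4. Cks1b in lamin A/C KO read 561, 555 and 497 on day 0, 3684, 3177 and 3637 on day 3 and 3032, 2208 and 2232 on day 4. Cks1b in control muscle read 537 and 538 on day 0, 3307 and 2652 on day 3 and 2529 and 2803 on day 4. All of its injured arrays lay far above its day 0 arrays, and its day 3 difference was 3.60 ± 0.17 in emerin KO, 2.63 ± 0.15 in lamin A/C KO and 2.39 ± 0.19 in control (log2 ± SE). Cdk1 itself is the kinase that starts mitosis. Cdk1 signals in emerin KO were 26.3 and 94.3 on day 0, 1340, 1421 and 1660 on day 3 and 910, 1175 and 1084 on day 4. Cdk1 in lamin A/C KO read 257, 59.8 and 284 on day 0, 1204, 1599 and 1841 on day 3 and 923, 1047 and 1109 on day 4. Cdk1 in control muscle read 260 and 257 on day 0, 1140 and 1432 on day 3 and 968 and 1248 on day 4. Its day 3 difference was 4.13 ± 0.36 in emerin KO (adjusted p = 4.5e-09), 2.94 ± 0.33 in lamin A/C KO (adjusted p = 1.7e-07) and 2.17 ± 0.40 in control (adjusted p = 1.7e-04). The day 0 arrays spread widely in emerin KO and lamin A/C KO, where 1 lamin A/C KO array read 59.8 beside 257 and 284.

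Ccnb2, a B-type cyclin that activates Cdk1, is the cyclin B measured here. Ccnb2 signals in emerin KO were 26.9 and 30.2 on day 0, 743, 694 and 673 on day 3 and 528, 753 and 441 on day 4. Ccnb2 in lamin A/C KO read 106, 72.1 and 147 on day 0, 704, 875 and 835 on day 3 and 605, 572 and 575 on day 4. Ccnb2 in control muscle read 179 and 111 on day 0, 791 and 736 on day 3 and 477 and 667 on day 4. Its injured signals overlapped between the genotypes, while its emerin KO day 0 signals were the lowest. Ccna2, the A-type cyclin of S phase and early mitosis, rose by 2.22 in emerin KO, 1.86 in lamin A/C KO and 1.87 in control on day 3. Cdc20, the activator of the anaphase-promoting complex, read 2144, 2538 and 1097 on day 3 in emerin KO, 1214, 1300 and 1504 in lamin A/C KO and 1354 and 1161 in control. The third emerin KO array was the lowest of the 8 day 3 arrays and the other two were the highest. Ube2c, the ubiquitin-conjugating enzyme of that complex, rose by 3.53, 2.55 and 2.55 in the same order of genotypes. Cks2 rose by 3.23, 2.72 and 2.79, and Cdca3, a factor needed for entry into mitosis, by 2.77, 1.94 and 2.24. The other Cdca3 probe sets gave -0.01 ± 0.29 and -0.49 ± 0.25 in control on day 3. The second of them was lower in control on day 4 (-1.05 ± 0.25, adjusted p = 0.0022). The first was lower in emerin KO on day 3 (-0.90 ± 0.26, adjusted p = 0.0072), so the Cdca3 rise rests on 1 probe set.

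Pttg1, securin, the inhibitor of separase that holds sister chromatids together until anaphase, went the other way. Pttg1 signals in emerin KO were 11659 and 9180 on day 0, 5639, 5189 and 4542 on day 3 and 5374, 4232 and 5457 on day 4. Pttg1 in lamin A/C KO read 7581, 7901 and 7048 on day 0, 3312, 3203 and 3790 on day 3 and 2996, 3650 and 3066 on day 4. Pttg1 in control muscle read 7045 and 8489 on day 0, 2854 and 3237 on day 3 and 3208 and 2557 on day 4. Every injured array lay below every day 0 array of its genotype. The day 3 difference was -1.01 ± 0.16 in emerin KO (adjusted p = 1.3e-05), -1.12 ± 0.14 in lamin A/C KO (adjusted p = 8.7e-07) and -1.34 ± 0.17 in control (adjusted p = 2.1e-06). The probe set is of a kind that can share signal with related transcripts. Another Pttg1 probe set fell in control by 2.31 ± 0.22 (adjusted p = 5.9e-08), and the third gave -0.55 ± 0.40 (adjusted p = 0.34).

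Of the 8 mitotic kinases and chromosomal passenger proteins, 5 rose on day 3 in emerin KO, 6 in lamin A/C KO and 8 in control. Birc5, survivin, the passenger subunit that brings Aurora B to centromeres, had the largest rise of all members in emerin KO. Birc5 signals in emerin KO were 58.8 and 26.5 on day 0, 2006, 2097 and 1739 on day 3 and 1397, 1150 and 1347 on day 4. Birc5 in lamin A/C KO read 166, 227 and 256 on day 0, 1187, 1350 and 1722 on day 3 and 972, 865 and 1013 on day 4. Birc5 in control muscle read 131 and 145 on day 0, 1204 and 1120 on day 3 and 1059 and 948 on day 4. The day 3 difference was 4.76 ± 0.19 in emerin KO, 2.55 ± 0.17 in lamin A/C KO and 2.81 ± 0.21 in control. Incenp, the scaffold of the same complex, came next. Incenp signals in emerin KO were 127 and 8.73 on day 0, 2244, 1995 and 1442 on day 3 and 1313, 892 and 1371 on day 4. Incenp in lamin A/C KO read 162, 136 and 92.1 on day 0, 861, 976 and 1365 on day 3 and 622, 544 and 507 on day 4. Incenp in control muscle read 139 and 134 on day 0, 844 and 690 on day 3 and 621 and 667 on day 4. Its differences on day 3 were 4.56 ± 0.36, 2.76 ± 0.32 and 2.24 ± 0.39 in that order, and 1 emerin KO day 0 array, at 8.73, lay far below the other at 127.

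Aurkb is the Aurora kinase that Birc5 and Incenp bind. Aurkb signals in emerin KO were 241 and 251 on day 0, 222, 192 and 200 on day 3 and 233, 247 and 224 on day 4. Aurkb in lamin A/C KO read 205, 344 and 219 on day 0, 325, 337 and 328 on day 3 and 286, 378 and 290 on day 4. Aurkb in control muscle read 167 and 162 on day 0, 377 and 302 on day 3 and 287 and 192 on day 4. It rose in control on day 3 (0.91 ± 0.23, adjusted p = 0.003), and gave -0.23 ± 0.21 in emerin KO (adjusted p = 0.38) and 0.36 ± 0.19 in lamin A/C KO (adjusted p = 0.12). The other Aurkb probe set rose in control (1.25 ± 0.34, adjusted p = 0.0065) and gave 0.66 ± 0.31 in emerin KO (adjusted p = 0.092). Plk1, the polo kinase that acts on centrosomes, kinetochores and cytokinesis, rose in all 3. Plk1 signals in emerin KO were 99.3 and 173 on day 0, 1178, 1493 and 832 on day 3 and 847, 661 and 945 on day 4. Plk1 in lamin A/C KO read 184, 236 and 185 on day 0, 571, 789 and 836 on day 3 and 406, 494 and 359 on day 4. Plk1 in control muscle read 166 and 174 on day 0, 594 and 627 on day 3 and 431 and 357 on day 4. Its day 3 differences were 2.83 in emerin KO, 1.70 in lamin A/C KO and 1.67 in control. Melk, a kinase of proliferating cells, read 5.03 to 17 on the day 0 arrays and 90.1 to 305 on the injured ones. Plk4, the kinase of centriole duplication, rose by 1.39, 1.70 and 1.88. Aurka, the centrosomal Aurora kinase, rose in lamin A/C KO (0.76) and control (0.81) and gave 0.40 in emerin KO (adjusted p = 0.069). Nek2, a centrosome kinase, rose in control (1.10) and gave 0.60 in emerin KO (adjusted p = 0.17) and 0.76 in lamin A/C KO (adjusted p = 0.051).

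Of the 11 kinetochore and checkpoint genes, 10 rose on day 3 in emerin KO, 10 in lamin A/C KO and 11 in control. Cenpa is the histone H3 variant that marks centromeres. Cenpa signals in emerin KO were 137 and 203 on day 0, 811, 803 and 757 on day 3 and 679, 662 and 674 on day 4. Cenpa in lamin A/C KO read 94.5, 125 and 128 on day 0, 621, 735 and 646 on day 3 and 479, 731 and 630 on day 4. Cenpa in control muscle read 114 and 102 on day 0, 968 and 803 on day 3 and 615 and 601 on day 4. Its day 3 difference was 2.05 in emerin KO, 2.25 in lamin A/C KO and 2.71 in control. Cenpf is a large protein of the outer kinetochore. Cenpf signals in emerin KO were 190 and 41.3 on day 0, 654, 757 and 692 on day 3 and 582, 595 and 403 on day 4. Cenpf in lamin A/C KO read 249, 323 and 210 on day 0, 488, 581 and 548 on day 3 and 461, 560 and 536 on day 4. Cenpf in control muscle read 247 and 251 on day 0, 765 and 576 on day 3 and 533 and 470 on day 4. The rises were 2.52, 0.98 and 1.31, and 1 emerin KO day 0 array read 41.3 where the other read 190.

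The checkpoint proteins Mad2l1, Bub1, Bub1b and Ttk all rose in every genotype on day 3. Mad2l1, the checkpoint protein that holds Cdc20 inactive, had the lowest day 0 signals in emerin KO. Mad2l1 signals in emerin KO were 20.1 and 26.9 on day 0, 394, 368 and 471 on day 3 and 386, 503 and 437 on day 4. Mad2l1 in lamin A/C KO read 122, 108 and 154 on day 0, 553, 647 and 572 on day 3 and 497, 505 and 546 on day 4. Mad2l1 in control muscle read 128 and 161 on day 0, 610 and 558 on day 3 and 465 and 443 on day 4. Its rise was 2.99 ± 0.18 in emerin KO, 1.97 ± 0.16 in lamin A/C KO and 1.81 ± 0.19 in control. Bub1b rose by 2.53, 2.93 and 2.46, Bub1 by 2.15, 2.52 and 2.57, and Ttk, the Mps1 kinase, by 1.36, 0.87 and 1.02. Nuf2, Ndc80 and Spc25 belong to the Ndc80 complex, which holds microtubules at the kinetochore. Nuf2 signals in emerin KO were 32.7 and 13.6 on day 0, 418, 474 and 438 on day 3 and 391, 364 and 428 on day 4. Nuf2 in lamin A/C KO read 94.3, 76.4 and 101 on day 0, 316, 492 and 443 on day 3 and 293, 242 and 273 on day 4. Nuf2 in control muscle read 96.4 and 117 on day 0, 530 and 341 on day 3 and 279 and 244 on day 4. Nuf2 rose by 3.13, 1.86 and 1.73, Spc25 by 3.03, 1.66 and 2.02, and Ndc80 by 1.72, 1.30 and 1.01. Cenpe, a kinesin of the kinetochore, rose by 2.25, 1.53 and 1.62.

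Ercc6l, the PICH helicase of stretched DNA in anaphase, was the least even member. Ercc6l signals in emerin KO were 125 and 416 on day 0, 388, 413 and 377 on day 3 and 144, 235 and 273 on day 4. Ercc6l in lamin A/C KO read 34.3, 12.9 and 401 on day 0, 198, 145 and 309 on day 3 and 181, 148 and 197 on day 4. Ercc6l in control muscle read 9.74 and 15 on day 0, 271 and 249 on day 3 and 185 and 272 on day 4. Its day 0 arrays were far apart within both knockouts, and the emerin KO day 0 array at 416 stood above every injured array. Ercc6l rose in control on day 3 (2.72 ± 0.65, adjusted p = 0.0021) and gave 0.68 ± 0.59 in emerin KO (adjusted p = 0.37) and 1.14 ± 0.53 in lamin A/C KO (adjusted p = 0.09).

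Of the 11 kinesins and spindle assembly genes, 8 rose on day 3 in emerin KO, 10 in lamin A/C KO and 10 in control. Kif22 is a chromosome-bound kinesin. Kif22 signals in emerin KO were 167 and 205 on day 0, 2079, 2728 and 1295 on day 3 and 1915, 1695 and 2668 on day 4. Kif22 in lamin A/C KO read 433, 457 and 428 on day 0, 1352, 1367 and 1979 on day 3 and 1005, 1125 and 1098 on day 4. Kif22 in control muscle read 333 and 244 on day 0, 1345 and 1505 on day 3 and 1111 and 1398 on day 4. Its day 3 difference was 3.19 in emerin KO, 1.74 in lamin A/C KO and 2.20 in control. Prc1 bundles the microtubules of the spindle midzone. Prc1 signals in emerin KO were 127 and 193 on day 0, 1276, 942 and 933 on day 3 and 843, 1068 and 1010 on day 4. Prc1 in lamin A/C KO read 252, 287 and 189 on day 0, 1083, 1173 and 1238 on day 3 and 857, 821 and 878 on day 4. Prc1 in control muscle read 223 and 232 on day 0, 1188 and 1074 on day 3 and 709 and 1031 on day 4. The injured Prc1 arrays overlapped between the genotypes, and the day 3 rises were 2.5, 2.14 and 2.16. Kif2c, a kinesin that removes tubulin from microtubule ends at centromeres, had higher day 3 signals in emerin KO. Kif2c signals in emerin KO were 78.1 and 33.5 on day 0, 858, 810 and 777 on day 3 and 566, 480 and 516 on day 4. Kif2c in lamin A/C KO read 52.6, 38.8 and 77.8 on day 0, 409, 503 and 473 on day 3 and 353, 287 and 363 on day 4. Kif2c in control muscle read 61.2 and 50.8 on day 0, 471 and 393 on day 3 and 311 and 312 on day 4. The rises were 3.32, 2.5 and 2.40. The other 3 Kif2c probe sets did not pass in control on day 3, with 0.66 ± 0.34, -0.16 ± 0.26 and -0.17 ± 0.23. The Kif2c rise in control therefore rests on 1 probe set that can share signal with related transcripts. In both knockouts another Kif2c probe set also rose on day 3.

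The central spindle kinesin Kif23 rose by 2.5 in emerin KO, 2.79 in lamin A/C KO and 2.75 in control. Tpx2, which activates Aurora A, rose by 2.20, 2.10 and 1.53 in that order. Tacc3, a spindle microtubule protein, rose by 1.57, 1.60 and 1.59, and Hmmr, a spindle pole protein, by 1.42, 1.17 and 1.52. Kif4, a chromosome-arm kinesin, rose by 0.65, 0.69 and 0.99. Kif20a, a kinesin of cytokinesis, rose in lamin A/C KO (1.01) and control (1.33) and gave 0.68 in emerin KO (adjusted p = 0.11). Nusap1, a spindle microtubule protein, rose in the same pair of genotypes (1.28 and 1.32) and gave 0.57 in emerin KO (adjusted p = 0.067). For Kif11 the day 3 differences were 0.12 in emerin KO (adjusted p = 0.71), 0.46 in lamin A/C KO (adjusted p = 0.094) and 0.68 in control (adjusted p = 0.052), with 95% intervals of -0.38 to 0.63, 0.01 to 0.92 and 0.13 to 1.24. Another Kif11 probe set rose in control on day 3 (1.22 ± 0.35, adjusted p = 0.011), and the third gave 0.72 ± 0.33 (adjusted p = 0.1). The former also rose in emerin KO on day 4 (0.89 ± 0.32, adjusted p = 0.031). Its day 3 change minus that of control was 0.43 ± 0.48 in emerin KO (limma, adjusted p = 0.71). In lamin A/C KO it was -0.20 ± 0.46 (adjusted p = 0.98).

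All 3 cytokinesis genes rose in each genotype. Anln is anillin, the scaffold of the contractile ring. Anln signals in emerin KO were 130 and 262 on day 0, 517, 538 and 871 on day 3 and 544, 711 and 486 on day 4. Anln in lamin A/C KO read 212, 156 and 268 on day 0, 718, 900 and 748 on day 3 and 682, 654 and 746 on day 4. Anln in control muscle read 149 and 215 on day 0, 886 and 850 on day 3 and 733 and 618 on day 4. It rose by 1.59 in emerin KO, 1.77 in lamin A/C KO and 2.09 in control on day 3. Racgap1 is a subunit of centralspindlin. Racgap1 signals in emerin KO were 175 and 101 on day 0, 458, 581 and 429 on day 3 and 595, 407 and 575 on day 4. Racgap1 in lamin A/C KO read 156, 226 and 216 on day 0, 497, 483 and 499 on day 3 and 599, 436 and 489 on day 4. Racgap1 in control muscle read 217 and 126 on day 0, 539 and 618 on day 3 and 420 and 419 on day 4. The Racgap1 rises were 1.64, 1.20 and 1.62. Ect2 is the exchange factor that switches on RhoA at the division site. Ect2 signals in emerin KO were 10.4 and 31.8 on day 0, 236, 252 and 283 on day 3 and 180, 319 and 117 on day 4. Ect2 in lamin A/C KO read 63.3, 110 and 100 on day 0, 235, 277 and 255 on day 3 and 274, 175 and 234 on day 4. Ect2 in control muscle read 43.5 and 117 on day 0, 358 and 334 on day 3 and 338 and 307 on day 4. The Ect2 rises were 2.47, 1.24 and 1.83, and the lowest day 0 arrays were those of emerin KO.

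All 6 chromosome condensation genes rose in each genotype. Top2a is the topoisomerase that untangles sister chromatids. Top2a signals in emerin KO were 127 and 143 on day 0, 2228, 2058 and 1833 on day 3 and 1552, 1667 and 1296 on day 4. Top2a in lamin A/C KO read 232, 294 and 275 on day 0, 1777, 1806 and 1856 on day 3 and 1180, 1019 and 1000 on day 4. Top2a in control muscle read 224 and 227 on day 0, 1558 and 1385 on day 3 and 1097 and 1387 on day 4. Its rise on day 3 was 3.63 ± 0.15 in emerin KO (adjusted p = 1.0e-13), 2.63 ± 0.13 in lamin A/C KO (adjusted p = 2.5e-12) and 2.54 ± 0.16 in control (adjusted p = 1.8e-10). Mki67 is the Ki-67 antigen, which coats mitotic chromosomes and marks dividing cells. Mki67 signals in emerin KO were 123 and 169 on day 0, 1850, 2540 and 1230 on day 3 and 1496, 1408 and 1587 on day 4. Mki67 in lamin A/C KO read 187, 207 and 208 on day 0, 1230, 1797 and 1913 on day 3 and 1372, 1000 and 1228 on day 4. Mki67 in control muscle read 179 and 218 on day 0, 1575 and 1334 on day 3 and 1226 and 1605 on day 4. The Mki67 rises were 3.37 ± 0.23, 2.83 ± 0.21 and 2.69 ± 0.26. Smc2 and Smc4, the core of the condensins, rose by 2.92 and 1.80 in emerin KO, 2.27 and 1.88 in lamin A/C KO and 2.07 and 1.82 in control. Ncaph, a condensin I subunit, rose by 1.53, 1.07 and 1.0. Ncapg2, a condensin II subunit, rose by 2.14, 1.05 and 1.5.

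Between day 3 and day 4 few members passed the test. Of the 48, 0 rose and 1 fell in emerin KO (1.17% of all genes, 0.959% higher and 0.215% lower), 0 rose and 1 fell in lamin A/C KO (2.04% of all genes, 1.29% higher and 0.753% lower), and 0 rose and 0 fell in control (0.0448% of all genes, 0.0448% higher and 0% lower). The median difference was -0.27 in emerin KO, -0.39 in lamin A/C KO and -0.32 in control. The limma estimates ran from -1.21 to 0.31 in emerin KO, from -0.93 to 0.04 in lamin A/C KO and from -0.64 to -0.05 in control. Estimates of 1 genotype come from the same arrays and are not independent of each other. In control an unadjusted limma p under 0.05 was reached by 5 of the 48. The member that fell in emerin KO was Ube2c. Ube2c signals in emerin KO were 89 and 93.5 on day 0, 1382, 1523 and 1285 on day 3 and 827, 907 and 870 on day 4. Ube2c in lamin A/C KO read 177, 177 and 164 on day 0, 1127, 1279 and 1084 on day 3 and 815, 843 and 922 on day 4. Ube2c in control muscle read 180 and 176 on day 0, 1193 and 1198 on day 3 and 909 and 793 on day 4. Its day 4 arrays all lay under its day 3 arrays in each genotype, and the difference was -0.66 ± 0.12 in emerin KO (adjusted p = 0.0035), -0.42 ± 0.12 in lamin A/C KO (adjusted p = 0.068) and -0.48 ± 0.15 in control (adjusted p = 0.52). The member that fell in lamin A/C KO was Top2a, whose signals are given above, with -0.75 ± 0.13 (adjusted p = 0.0042), beside -0.43 ± 0.13 in emerin KO (adjusted p = 0.14) and -0.25 ± 0.16 in control (adjusted p = 1). The lamin A/C KO count was 6 with only the compared groups fitted, 3 without either emerin KO day 0 array, and 2 without the second or the third lamin A/C KO day 0 array, the third emerin KO day 3 array, or the first lamin A/C KO array of day 3 or of day 4. The emerin KO count was 2 without the third emerin KO day 3 array.

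**Figure D3:**
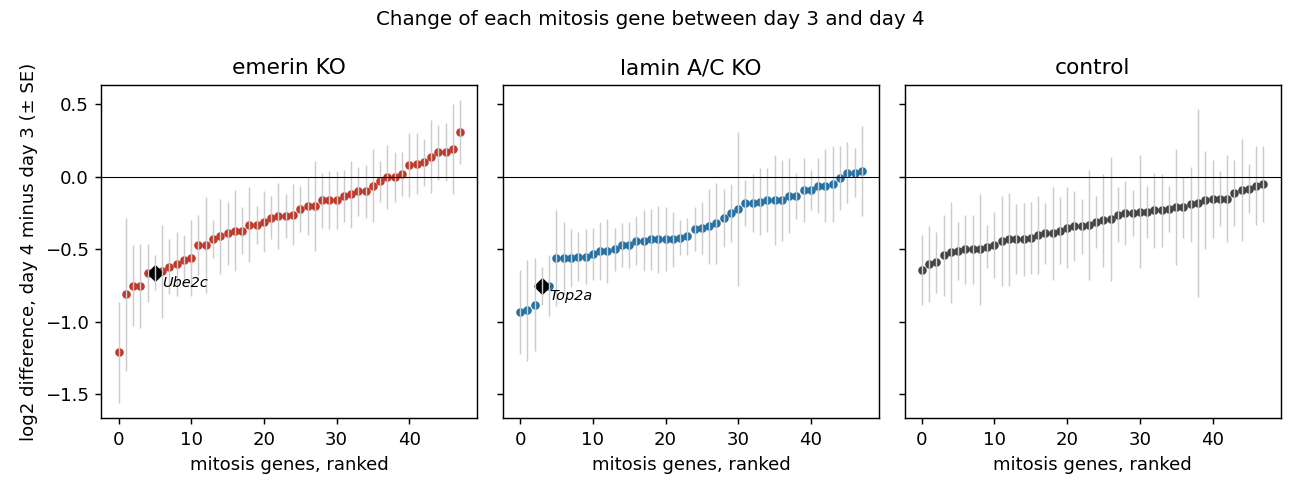
Log2 difference between day 4 and day 3 for the 48 mitosis genes in emerin KO, lamin A/C KO and control, each ranked from lowest to highest, with bars of 1 SE; black diamonds mark genes past the threshold. Ube2c (-0.66) in emerin KO and Top2a (-0.75) in lamin A/C KO are the 2 marked genes.

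Resting emerin KO muscle differed from control in 10 of the 48 genes. On day 0, 2 were higher and 8 lower (3.26% of all genes, 1.23% higher and 2.03% lower), and the median over the list was -0.23. The 8 lower genes were Birc5, Ccnb2, Cdk1, Cks1b, Mad2l1, Nuf2, Top2a and Ube2c. Mad2l1 read 20.1 and 26.9 in emerin KO, against 128 and 161 in control, a difference of -1.67 ± 0.19 (adjusted p = 2.4e-05). Cdk1 read 26.3 and 94.3 in emerin KO, against 260 and 257 in control (-1.76 ± 0.40, adjusted p = 0.015). Ccnb2 read 26.9 and 30.2 in emerin KO, against 179 and 111 in control (-1.52 ± 0.25, adjusted p = 9.3e-04). In these 3 genes no emerin KO array reached a control array, and all the emerin KO signals were under 100, where the array resolves little. Nuf2 gave -1.35 ± 0.24 (adjusted p = 0.0019), Birc5 -1.22 ± 0.21 (adjusted p = 0.0015) and Ube2c -0.77 ± 0.15 (adjusted p = 0.0034), also with all emerin KO signals under 100. Cks1b and Top2a, whose signals were all above 100, gave -0.73 ± 0.19 (adjusted p = 0.031) and -0.63 ± 0.16 (adjusted p = 0.036).

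The 2 higher genes were Aurka and Ercc6l. Aurka read 444 and 419 in emerin KO, against 203 and 265 in control (0.81 ± 0.19, adjusted p = 0.021), and Ercc6l gave 2.58 ± 0.65 (adjusted p = 0.03) from the uneven signals above. The count of 10 was 5 without the second emerin KO day 0 array, 5 without the first control day 0 array, 6 without the second, and 0 when only these 4 arrays were fitted. The Gapdh ratios were 0.914 and 1.34 on the emerin KO arrays and 0.829 and 0.949 on the control arrays. The summed signal of 10 fibroblast markers was 38999 and 60246 in emerin KO and 81324 and 93191 in control, with all 10 above 100 in both, and its part in these differences was not tested. The myoblast sum, over 11 markers, was 13074 to 14638 in emerin KO and 12362 to 12934 in control. The mean log2 level of these markers went the other way, at 8.05 to 8.19 in emerin KO and 8.53 in control. Its part was not tested either. Of the 10 genes only Cks1b has another tested probe set, which gave 0.01 ± 0.20 (adjusted p = 0.98).

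On day 3, 8 genes were higher and 1 lower in emerin KO than in control (16.3% of all genes, 7.38% higher and 8.93% lower). The share of 48 is near that of all genes, and the median over the list was 0.10. The 8 higher genes were Incenp, Ncapg2, Kif2c, Plk1, Pttg1, Birc5, Ncaph and Top2a, and the lower one was Aurkb. Incenp read 2244, 1995 and 1442 in emerin KO, against 844 and 690 in control (1.25 ± 0.36, adjusted p = 0.019). Plk1 read 1178, 1493 and 832 in emerin KO, against 594 and 627 in control (0.86 ± 0.24, adjusted p = 0.015). Kif2c read 858, 810 and 777 in emerin KO, against 471 and 393 in control (0.87 ± 0.22, adjusted p = 0.0078). All emerin KO arrays of these 3 genes lay above both control arrays. Birc5 gave 0.73 ± 0.19 (adjusted p = 0.013), Pttg1 0.74 ± 0.16 (adjusted p = 0.0026) and Aurkb -0.64 ± 0.21 (adjusted p = 0.037). Ncaph gave 0.48 ± 0.15 (adjusted p = 0.028) and Top2a 0.46 ± 0.15 (adjusted p = 0.039). Ncapg2 had signals that stayed apart on both days. Ncapg2 signals in emerin KO were 97.3 and 124 on day 0, 701, 591 and 509 on day 3 and 622, 1069 and 424 on day 4. Ncapg2 in lamin A/C KO read 127, 66.5 and 92.1 on day 0, 192, 287 and 208 on day 3 and 223, 238 and 190 on day 4. Ncapg2 in control muscle read 74.1 and 64.2 on day 0, 296 and 217 on day 3 and 187 and 171 on day 4. All its injured emerin KO arrays lay above all injured arrays of the other genotypes, with 1.14 ± 0.28 on day 3 (adjusted p = 0.0082).

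All 3 emerin KO arrays behind these calls had a high Gapdh ratio and no control array did. A fit that holds the ratio therefore separates it poorly from genotype. With the ratio as a covariate 0 of the 48 genes passed on day 3, and the difference was 0.87 for Incenp, -0.09 for Plk1, 0.97 for Kif2c and 2.21 for Ncapg2 (adjusted p = 0.063, with 0.13 the highest over 34 alternatives). Of the 9 genes, 5 have another tested probe set, and none of the other probe sets of Aurkb, Incenp, Kif2c, Ncaph and Pttg1 passed. All 5 are read by a probe set that can share signal with related transcripts. For Incenp the other probe sets gave 0.33 ± 0.31 (adjusted p = 0.56) and -0.70 ± 0.29 (adjusted p = 0.12). For Kif2c they gave 0.28 ± 0.21 (adjusted p = 0.42), -0.14 ± 0.31 (adjusted p = 0.84) and -0.23 ± 0.24 (adjusted p = 0.62). For Pttg1 they gave 0.11 ± 0.20 (adjusted p = 0.8) and -0.05 ± 0.36 (adjusted p = 0.96). The count of 9 was 1 without the second control day 3 array, 3 without the first and 3 without the second emerin KO day 3 array. The fibroblast sum on day 3 was 54479 to 64783 in emerin KO and 87723 to 91724 in control. That of mature fibre markers was 64516 to 75892 in emerin KO and 82559 to 127166 in control. Their mean log2 levels overlapped, at 12.07 to 12.39 and 12.3 to 13.12. The sum of 8 neutrophil markers, with Camp and Cxcr2 under 100 in both, was 2828 to 3393 in emerin KO and 4412 to 4818 in control. Macrophage sums were 53285 to 55823 in emerin KO and 46056 to 49280 in control, and the myoblast sums overlapped. The part of these cells was not tested.

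On day 4, 3 genes were higher and 0 lower in emerin KO than in control (5.87% of all genes, 2.58% higher and 3.29% lower). Ncapg2 read 622, 1069 and 424 in emerin KO, against 187 and 171 in control (1.71 ± 0.28, adjusted p = 0.0017). This was the largest genotype difference of the list on an injured day, and its call was kept in 35 of 35 alternatives, with a log2 difference between 1.37 and 2.38. Ncapg2 has no other tested probe set to set beside it. The limit on the Gapdh ratio leaves 1 emerin KO array on day 4, the one that read 1069. Plk1 gave 0.99 ± 0.24 (adjusted p = 0.018) and Pttg1 0.79 ± 0.16 (adjusted p = 0.0048). The count was 1 with the Gapdh ratio as a covariate, 1 without the arrays of a ratio above 2.5, 1 without the second control day 4 array, and 5 to 6 without either emerin KO day 0 array or the second emerin KO day 4 array. The other Pttg1 probe sets gave -0.26 ± 0.20 (adjusted p = 0.51) and 0.00 ± 0.36 (adjusted p = 1). Marker sums separated the same arrays. On day 4 the myoblast sum was 37404 to 41844 in emerin KO and 28154 to 31599 in control, and the macrophage sum was 50897 to 58509 in emerin KO and 42926 to 45458 in control. The fibroblast sum was 71558 to 78637 in emerin KO and 87917 to 102050 in control, and the mature fibre sum 101956 to 109067 in emerin KO and 125667 to 142011 in control. The part of these cells in the differences was not tested.

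**Figure D4:**
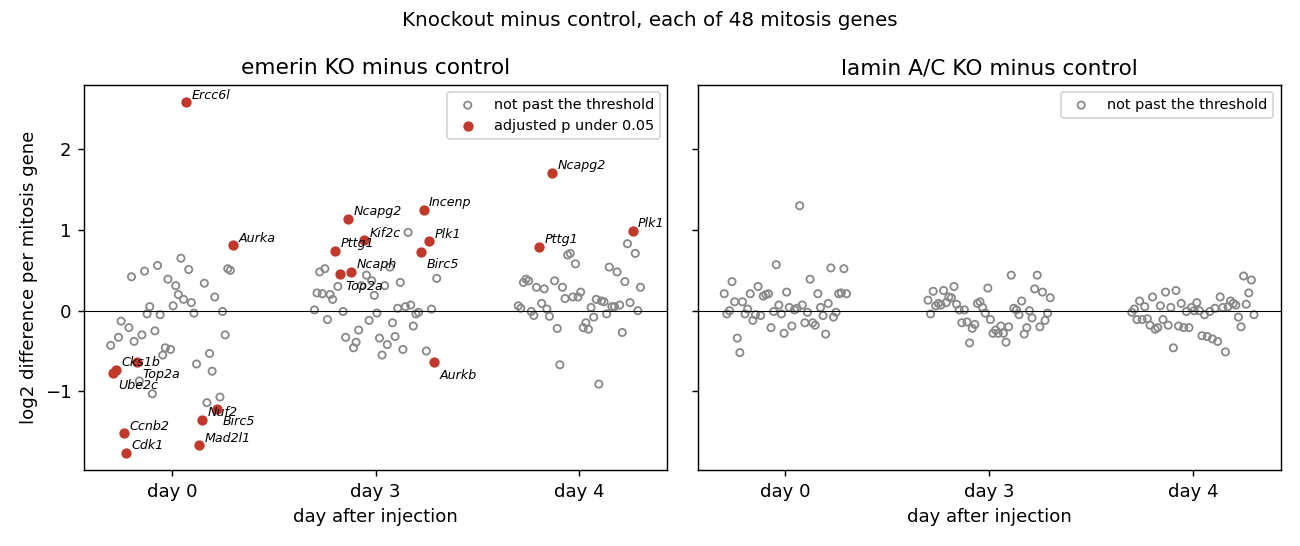
Log2 difference between emerin KO and control (left) and between lamin A/C KO and control (right) for each of the 48 mitosis genes on days 0, 3 and 4; filled points are past the threshold and named, open points are not. Emerin KO points spread from -1.76 to 2.58 on day 0, while no lamin A/C KO point is filled on any day.

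The rise itself was larger in emerin KO for some members. In the interaction of genotype with day 3 against day 0, 9 of the 48 passed, 8 with a larger difference in emerin KO than in control and 1 with a smaller one (2.65% of all genes, 1.42% higher and 1.23% lower). The 8 were Incenp (2.32 ± 0.53, adjusted p = 0.023), Birc5 (1.95 ± 0.29, adjusted p = 0.0016), Ccnb2 (1.41 ± 0.34, adjusted p = 0.03), Nuf2 (1.40 ± 0.33, adjusted p = 0.024), Cks1b (1.20 ± 0.25, adjusted p = 0.013) and Mad2l1 (1.18 ± 0.26, adjusted p = 0.018), with Top2a at 1.09 and Ube2c at 0.98. The Aurkb estimate was below 0 (-1.14 ± 0.31, adjusted p = 0.05, just under the threshold), and Aurkb itself did not pass in emerin KO. In the fit of each probe set on its own the Aurkb interaction did not pass (adjusted p = 0.056). Its other probe set gave -0.59 ± 0.46 there (adjusted p = 0.56). Aurkb, Cks1b and Incenp have other tested probe sets, none of which passed. The other Incenp probe sets gave -0.03 ± 0.46 (adjusted p = 0.98) and -0.94 ± 0.44 (adjusted p = 0.28), and the other of Cks1b 0.23 ± 0.27 (adjusted p = 0.73). For Ccnb2, Nuf2 and Mad2l1 the day 3 levels were near those of control, with differences of -0.11, 0.05 and -0.48, beside -1.52, -1.35 and -1.67 on day 0. For Birc5 the day 0 difference was -1.22 and the day 3 difference 0.73. For Incenp they were -1.07 (adjusted p = 0.16) and 1.25. With the Gapdh ratio held as a covariate, 0 of the 48 passed. The count of 9 was 1 without the second control day 3 array, 5 without either control day 0 array or the second emerin KO day 3 array, and 1 with only the compared groups fitted.

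On day 4 against day 0, the interaction passed for Nuf2 (1.88 ± 0.33, adjusted p = 0.0065), Mad2l1 (1.62 ± 0.26, adjusted p = 0.0043), Birc5 (1.58 ± 0.29, adjusted p = 0.0099) and Ccnb2 (1.51 ± 0.34, adjusted p = 0.044), with estimates above 0 for all of them (0.574% of all genes, 0.358% higher and 0.215% lower). The count of 4 was 1 without the arrays of a high Gapdh ratio, 0 with only the compared groups fitted, and 7 without the first emerin KO day 0 array. These interactions share the control and day 0 arrays with the comparisons above. The interaction with day 4 against day 3 passed for 0 of the 48 (limma; 0.0448% of all genes, 0.0358% higher and 0.00896% lower), with an unadjusted p under 0.05 for 3.

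**Figure D5:**
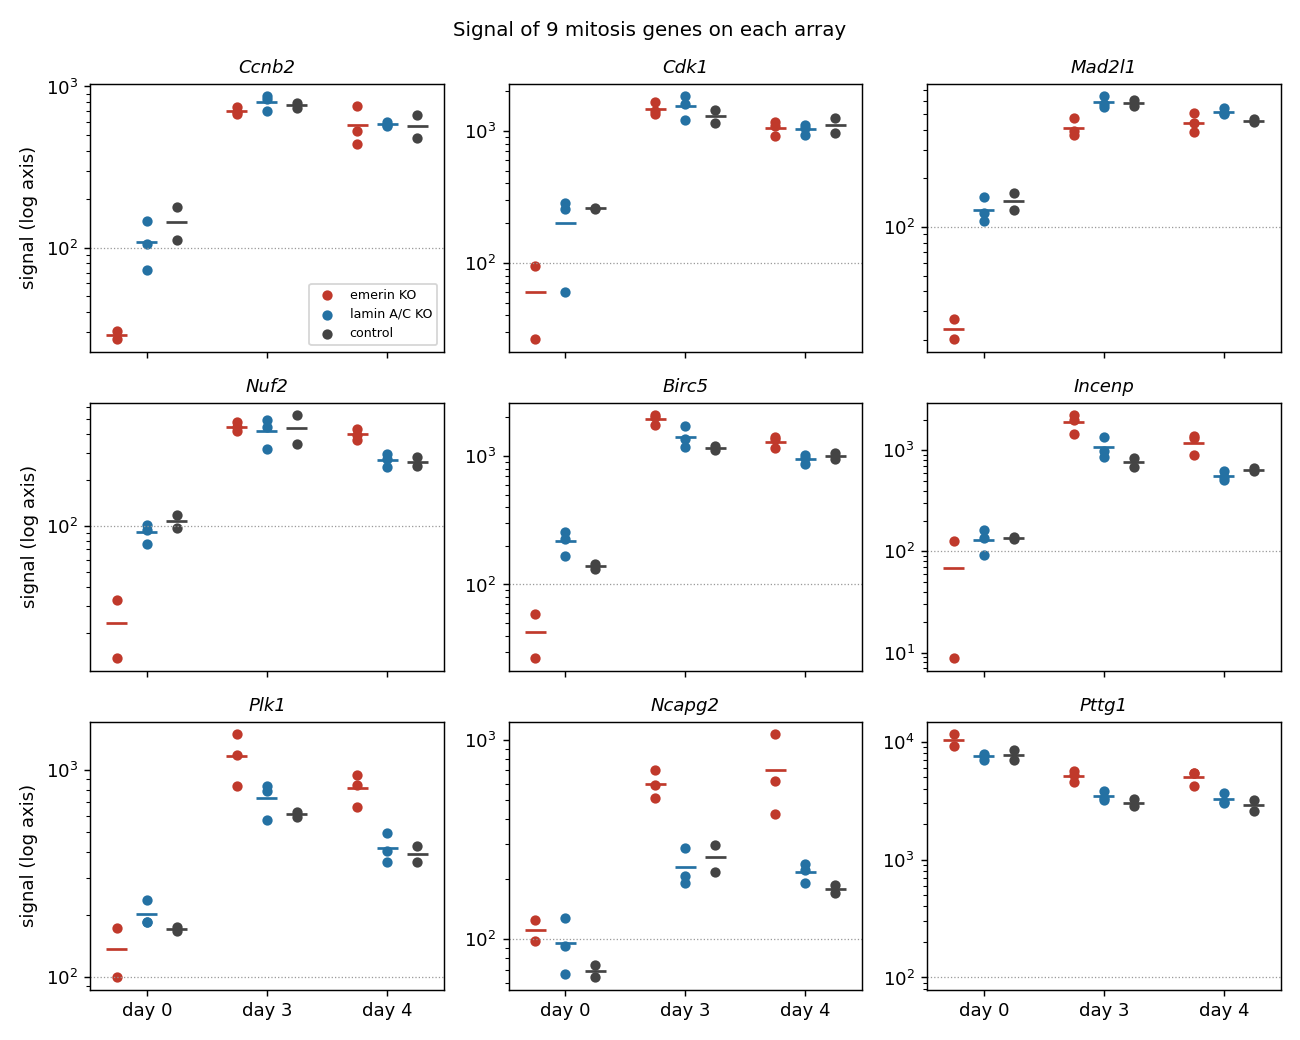
Signal on each array, on a log axis, for 9 mitosis genes named in the genotype comparisons, with emerin KO, lamin A/C KO and control from left to right within each day; bars are group means and the dotted line is a signal of 100. Emerin KO arrays are lowest on day 0 for Ccnb2, Mad2l1, Nuf2 and Birc5, and highest on days 3 and 4 for Ncapg2.

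Lamin A/C KO muscle gave no call against control. On day 0, day 3 and day 4, 0 of the 48 genes passed (limma; all genes, 0.896% with 0.753% higher and 0.143% lower on day 0, 0.0269% with 0% higher on day 3 and 0.0448% with 0% higher on day 4), and an unadjusted p under 0.05 was reached by 4, 1 and 1 of them in the order of days. The differences ran from -0.52 to 1.30 on day 0, from -0.40 to 0.44 on day 3 and from -0.51 to 0.43 on day 4, and the day 0 maximum was the uneven Ercc6l. On each of the 3 days the 95% interval of 43 of the 48 genes lay within a 2-fold change either way, which bounds the difference without showing that the genotypes are alike. On day 3 Cdk1 had an interval of -0.51 to 1.01, Mki67 of -0.33 to 0.64 and Top2a of -0.01 to 0.61. Birc5, lower in resting emerin KO, had day 0 signals of 166, 227 and 256 in lamin A/C KO muscle, while control muscle gave 131 and 145 (0.53 ± 0.19, adjusted p = 0.28). The interactions of lamin A/C KO with day also passed for 0 genes (all genes, 0.170% (0.00896% higher and 0.161% lower) for day 3 against day 0, 0.206% (0.0179% higher and 0.188% lower) for day 4 against day 0 and 0.00896% (0% higher and 0.00896% lower) for day 4 against day 3), with an unadjusted limma p under 0.05 for 0, 2 and 2 of the 48 in that order.

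Emerin KO was also set against lamin A/C KO. On day 0, 2 genes were higher and 12 lower in emerin KO (6.30% of all genes, 2.12% higher and 4.19% lower). Birc5 read 58.8 and 26.5 in emerin KO, against 166, 227 and 256 in lamin A/C KO (-1.75 ± 0.19, adjusted p = 4.1e-06), a call kept in 35 of 35 alternatives. Mad2l1 gave -1.52 ± 0.18 (adjusted p = 6.8e-06), Cdk1 -1.24 ± 0.36 (adjusted p = 0.044), Ect2 -1.22 ± 0.32 (adjusted p = 0.02), Ccnb2 -1.18 ± 0.23 (adjusted p = 0.0024) and Cenpf -1.18 ± 0.29 (adjusted p = 0.015). Nuf2, Kif22, Top2a, Ube2c, Cks1b and Cks2 were also lower, at -1.17 to -0.63, and Kif23 (0.78) and Aurka (0.61) were higher. The count of 14 was 9 without the second emerin KO day 0 array. Cenpf, Cks1b, Cks2, Kif22 and Kif23 have other tested probe sets, none of which passed. The fibroblast sum on day 0 was 38999 to 60246 in emerin KO and 70510 to 104701 in lamin A/C KO, and the myoblast sum 13074 to 14638 in emerin KO and 16131 to 18212 in lamin A/C KO. The macrophage sum was 7704 to 9375 in emerin KO and 9825 to 12006 in lamin A/C KO, and the part of these cells was not tested.

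On day 3, 4 genes were higher and 2 lower in emerin KO than in lamin A/C KO (9.97% of all genes, 3.97% higher and 6.0% lower). Ncapg2 gave 1.28 ± 0.25 (adjusted p = 0.0028), kept in 34 of 34 alternatives. Kif2c gave 0.78, Pttg1 0.57 and Ncaph 0.47, while Aurkb gave -0.61 and Mad2l1 -0.50. Ncaph signals in emerin KO were 418 and 341 on day 0, 1106, 1220 and 1124 on day 3 and 978, 792 and 973 on day 4. Ncaph in lamin A/C KO read 408, 381 and 337 on day 0, 726, 868 and 878 on day 3 and 586, 633 and 613 on day 4. Ncaph in control muscle read 355 and 429 on day 0, 806 and 822 on day 3 and 685 and 705 on day 4. The emerin KO arrays of Ncaph stood highest on both injured days. Other tested probe sets of Aurkb, Kif2c, Ncaph and Pttg1 did not pass, and the other of Ncaph gave 0.10 ± 0.17 (adjusted p = 0.77). The fibroblast sum on day 3 was 54479 to 64783 in emerin KO and 78815 to 93044 in lamin A/C KO, and its part was not tested.

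On day 4, 10 genes were higher and 0 lower in emerin KO than in lamin A/C KO (16.4% of all genes, 8.41% higher and 8.02% lower). The largest were Ncapg2 (1.47 ± 0.25, adjusted p = 6.8e-04), Incenp (1.03 ± 0.32, adjusted p = 0.031), Kif22 (0.91 ± 0.22, adjusted p = 0.0065), Plk1 (0.91 ± 0.21, adjusted p = 0.0061), Tacc3 (0.79 ± 0.19, adjusted p = 0.007) and Pttg1 (0.62 ± 0.14, adjusted p = 0.0048). Tacc3 signals in emerin KO were 133 and 143 on day 0, 447, 490 and 481 on day 3 and 413, 464 and 388 on day 4. Tacc3 in lamin A/C KO read 68.7, 129 and 91.5 on day 0, 331, 353 and 370 on day 3 and 237, 219 and 235 on day 4. Tacc3 in control muscle read 80.1 and 118 on day 0, 317 and 404 on day 3 and 333 and 220 on day 4. The injured emerin KO arrays of Tacc3 lay above the injured lamin A/C KO arrays. The other Tacc3 probe sets gave 0.01 ± 0.31 (adjusted p = 0.99) and 0.20 ± 0.72 (adjusted p = 0.89). Kif2c, Ncaph, Top2a and Cks1b were also higher, by 0.60, 0.55, 0.48 and 0.46. Of the 10 genes, 7 have another tested probe set, and in 0 of the 7 did another one pass. They are Cks1b, Incenp, Kif22, Kif2c, Ncaph, Pttg1 and Tacc3. All of them but Cks1b are read by a probe set that can share signal with related transcripts. With the Gapdh ratio held as a covariate, 1 of the 48 genes passed on day 3 and 1 on day 4, and in both it was Ncapg2. The day 4 count was 6 without the first or the third emerin KO day 4 array and 6 without the second or the third lamin A/C KO day 4 array. The day 3 count of 6 was 1 without the first lamin A/C KO day 3 array, 2 without the second, 2 without the first emerin KO day 3 array and 3 without the second. On day 4 the myoblast sum was 37404 to 41844 in emerin KO and 27012 to 30947 in lamin A/C KO, and the fibroblast sum 71558 to 78637 in emerin KO and 95555 to 107262 in lamin A/C KO. Neither pair of ranges overlapped, and the part of these cells in the differences was not tested.

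Other genes of mitosis rose as well. Of 50 tested genes of a second list, 32 rose and 1 fell on day 3 in emerin KO (median 1.16), 32 rose and 0 fell in lamin A/C KO (0.89), and 29 rose and 1 fell in control (0.97). Of all genes tested, 23.9%, 23.4% and 20.1% were higher and 22.2%, 19.6% and 14.2% lower in that order. Stmn1, stathmin, which destabilises microtubules, rose by 2.85 in emerin KO, and Pbk, a mitotic kinase, by 2.78. Trip13, which disassembles the checkpoint complex, rose by 2.09 in lamin A/C KO and 2.42 in control. On day 3, 7 of the 50 were higher and 0 lower in emerin KO than in control, beside 7.38% higher and 8.93% lower of all genes tested, and 0 passed once the Gapdh ratio was held as a covariate (1 with an unadjusted limma p under 0.05). The median over the 50 was 0.08, and the largest of the 7 differences were in Pkmyt1 (1.40), an inhibitory kinase of Cdk1, Rcc1 (1.03), the Ran exchange factor, Stmn1 (0.93) and Rcc2 (0.81). Lamin A/C KO passed for 0 of the 50 against control on day 0, day 3 or day 4. Over all genes, 0.896%, 0.0269% and 0.0448% passed on those days.

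Foxm1 and Mybl2 are transcription factors known to activate mitosis genes. Foxm1 rose in emerin KO on day 3 (1.34 ± 0.27, adjusted p = 2.7e-04) and gave 0.45 ± 0.24 in lamin A/C KO (adjusted p = 0.14) and 0.72 ± 0.29 in control (adjusted p = 0.066). Foxm1 read 350 and 124 in emerin KO on day 0, against 286 and 316 in control, and the 2 emerin KO arrays differed widely. Mybl2 gave 0.26, 0.20 and 0.15 on day 3 in emerin KO, lamin A/C KO and control, with 0 of the 3 past the threshold.

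The DNA replication genes moved with them. Of 42 tested, 31 rose in emerin KO on day 3 (median 1.27), 29 in lamin A/C KO (1.26) and 25 in control (1.01), with 0 lower in each. The shares over all genes were 23.9%, 23.4% and 20.1% higher and 22.2%, 19.6% and 14.2% lower in that order. Against control, 10 were higher and 0 lower in emerin KO on day 3 (7.38% higher and 8.93% lower over all genes), and 0 passed once the Gapdh ratio was held as a covariate, where 3 had an unadjusted limma p under 0.05. Cell type markers moved with injury too. The summed signal of 14 macrophage markers was 42926 to 60267 on the injured arrays, against 6910 to 12006 on the day 0 arrays. The summed signal of 11 myoblast markers was 27012 to 41844 after injury, against 12362 to 18212 on day 0. That of 12 mature fibre markers was 64516 to 142011 after injury, against 264879 to 347967 on day 0. The part of these cells in the rise of the mitosis genes was not tested. On day 3 the macrophage sum was 53285 to 55823 in emerin KO, 51957 to 54861 in lamin A/C KO and 46056 to 49280 in control.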

How the data were processed

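RNA of gastrocnemius muscle was read on 23 Affymetrix mouse arrays. Each deposited file holds MAS5 signal intensities (linear intensity per probe set), which the authors had scaled so that the trimmed mean (2% cut at each end) is 150.04 to 150.06 on every array, as the deposited values show. No source used here gives the version of MAS5. Precision is limited by how many arrays each group holds. Arrays were grouped by the labels into 9 groups. Signals were rescaled to a trimmed mean of 500, the scale of all signals given here, and taken as log2(signal + 32). Of the probe sets, 20380 had 1 gene symbol; 64 controls, 691 with several symbols and 1555 with none were left out. The probe set with the highest mean signal stood for each of 12384 genes, and the 11158 genes that reached a signal of 100 on 2 or more arrays were tested. Differences between group means were fitted with limma 3.58.1 (R 4.3.3; lmFit, contrasts.fit and eBayes with a trend; 14 residual degrees of freedom), and p-values were adjusted by Benjamini-Hochberg within each of 24 comparisons, with a threshold of 0.05. Values of other probe sets of a member come from a fit of 17771 probe sets, each on its own. The scripts were tested on simulated data. Values on every array are given for the 2 members of each role with the highest mean signal and for members past the threshold between genotypes, between days 4 and 3 or in an interaction, at most 6 per comparison. The alternatives were quantile normalization, median scaling, other pseudocounts and filters, the mean of all probe sets, the Gapdh ratio as a covariate or as a limit of 2.5, a replicate block, only the compared groups, and each array left out. The members and lists were chosen with earlier results of these data known.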

Additional observations from a re-analysis of the deposited data

Results flagged for a closer look

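The response to injury differed between emerin KO and control for 13 pairs of a gene and a day in the limma test of the interaction (adjusted p under 0.05). On day 3 against day 0, emerin KO minus control was 2.32 for Incenp, 1.95 for Birc5, 1.41 for Ccnb2, 1.40 for Nuf2, 1.20 for Cks1b, 1.18 for Mad2l1, 1.09 for Top2a, 0.98 for Ube2c and -1.14 for Aurkb, on the log2 scale. On day 4 against day 0 it was 1.88 for Nuf2, 1.62 for Mad2l1, 1.58 for Birc5 and 1.51 for Ccnb2. The emerin KO day 0 signals behind the Birc5, Ccnb2, Mad2l1, Nuf2 and Ube2c values were all under 100. The other probe sets of Incenp gave -0.03 and -0.94 for the day 3 interaction and that of Cks1b gave 0.23, and none of them passed. The groups hold 2 or 3 arrays, too few for a check of single arrays that stand apart.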

How the results depend on the processing

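The numbers of mitosis genes past the threshold on days 3 and 4 against day 0 kept within 1.5 times of the reported count in every genotype under every alternative run, and lamin A/C KO against control stayed at 0. The other counts moved. For emerin KO day 4 against day 3 (1), the count was 2 with quantile normalization, with a pseudocount of 100 and with the replicate block, and 0 with median scaling and with only the compared groups. For lamin A/C KO day 4 against day 3 (1), it was 2 when all probe sets were averaged, 2 without the arrays of a Gapdh ratio above 2.5 and 6 with only the compared groups. With only the compared groups fitted, emerin KO against control came to 0, 5 and 1 on days 0, 3 and 4 (reported 10, 9 and 3), emerin KO against lamin A/C KO to 2 on day 0 (14), and the emerin KO interactions to 1 and 0 on days 3 and 4 (9 and 4). With the Gapdh ratio as a covariate, emerin KO against control came to 0 on day 3 and 1 on day 4, emerin KO against lamin A/C KO to 1 on day 3 (6) and 1 on day 4 (10), and the day 3 interaction to 0. Without the arrays of a ratio above 2.5, which leaves no emerin KO array on day 3 and so no value there, emerin KO came to 1 against control and 1 against lamin A/C KO on day 4, and the day 4 interaction to 1. With the mean of all probe sets, emerin KO against lamin A/C KO came to 8, 2 and 3 on days 0, 3 and 4, and the day 3 interaction to 5. Median scaling gave 6 for emerin KO against lamin A/C KO on day 4, and the day 4 interaction came to 8 with quantile normalization and 7 with a pseudocount of 1. Beyond fewer arrays or fewer degrees of freedom where groups were dropped, the cause was not tested.

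Leaving out each array in turn gave 42 to 48, 36 to 43 and 0 to 0 genes for control (day 3 against 0, 4 against 0 and 4 against 3), 40 to 42, 38 to 41 and 1 to 2 for emerin KO, and 44 to 46, 40 to 44 and 1 to 3 for lamin A/C KO. Against control, emerin KO gave 5 to 11, 1 to 12 and 1 to 6 on days 0, 3 and 4, and against lamin A/C KO 9 to 15, 1 to 8 and 6 to 11. The emerin KO interactions gave 1 to 12 (day 3 against 0) and 3 to 7 (day 4 against 0). A lone array left in a group is assumed to vary like the other groups, as is the 1 emerin KO day 4 array left by the ratio limit. Of single genes, 3 called values changed sign: Cdca3 in lamin A/C KO day 4 against day 0 was -0.01 with the mean of all probe sets, and with the Gapdh covariate Cks1b in emerin KO against lamin A/C KO on day 4 was -0.01 and Plk1 in emerin KO against control on day 3 was -0.09. The call of Birc5 between emerin KO and lamin A/C KO on day 0, and those of Ncapg2 between the same genotypes on days 3 and 4 and against control on day 4, held in every alternative run. Whether replicate numbers pair the arrays cannot be settled with 2 or 3 arrays per group. Same-numbered arrays of different groups had a median correlation of 0.02 (-0.30 to 0.39), and different-numbered ones of -0.02 (-0.46 to 0.46). The correlation exceeded 0.1 in 26 of 82 same-numbered pairs and in 28 of 152 different-numbered pairs. Of the arrays, 11 of 23 correlated best with their own number, and the replicate block moved no other count by over 1.5 times.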
